A study of Rattus norvegicus with 244 samples.

Results

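Somatomotor cortex of the rat was compared between animals with a moderate injury and animals with sham surgery in the acute window, at 4 h and 24 h. Members were all samples whose titles give this tissue, 1 of these 2 times, and moderate injury or sham. They numbered 12 of the 84 samples of the series: 8 injured samples, with 4 at 4 h and 4 at 24 h, and 4 sham samples, with 2 at each time. The series title names spinal cord trauma and supraspinal tracts; the labels give neither the site of the injury nor the strain, age, sex or genotype of the rats, and they name no transgene or drug. Also used for single comparisons were 4 naive cortex samples, cortex at 7 d, 14 d, 28 d and 3 months (16 injured and 8 sham), and the raphe, a brainstem region, at 4 h and 24 h (8 injured and 4 sham samples).

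The somatomotor cortex lies far from the cord but holds the upper motor neurons whose axons form the corticospinal tract. Its layers also hold local excitatory and inhibitory neurons, astrocytes, oligodendrocytes, microglia and vessels, and all of these contribute RNA to a dissected piece of tissue. In such bulk tissue fewer cells of a type and less RNA per cell cannot be told apart. The gene by which the acute window had been singled out is Sfpq. Its protein, a splicing factor rich in proline and glutamine, binds RNA and DNA in the nucleus, pairs with Nono or Pspc1, and is needed to build paraspeckles, nuclear bodies held together by a long noncoding RNA.

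Every sample was measured on a set of 3 array types (A, B and C), whose probe sets differ (a probe set is a group of short probes that together measure 1 transcript). Signals are the deposited intensities, which had been scaled by the submitters so that the mean of each array without its lowest and highest 2% lay between 800.46 and 801.29. Differences below are injured minus sham of the same time on the scale log2(signal + 32), given ± their standard error. Folds are taken from them and so understate changes of dim probe sets. They were tested with limma, and p-values were adjusted by Benjamini-Hochberg over all 16730 probe sets bright enough to be tested; a call means an adjusted p under 0.05. Labels do not say which samples came from separate animals, so p-values measure the spread between these samples, which may be technical in part.

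The 12 samples carried the markers of cortex. Nrgn, a calmodulin-binding protein of forebrain neurons, lay between 16772 and 33284 in cortex and between 245 and 1375 in the raphe samples. Itpka, a kinase of dendritic spines, lay between 2258 and 3408 against 9.88 to 34.9, and Crym, a thyroid hormone-binding protein of cortical neurons, between 3898 and 5733 against 26.5 to 230.5. The brainstem gene Prph, an intermediate filament, went the other way with 99.6 to 248 against 1369 to 3037. Ttr, the transport protein made by choroid plexus, was at 197 to 2159 in cortex. Replicates of a group correlated at 0.93 to 0.981 over the probe sets of an array type, and no pair held identical values. For replicates 1 and 2 of injured cortex at 24 h the descriptions of the type A arrays give 4 h; titles were followed.

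Over both times 12 probe sets passed, 5 higher and 7 lower after injury, which is 0.0717% of those tested. All 12 were on 1 side in 8 of 8 injured samples and none of their injured values overlapped a sham value. Such separation was not rare: among all probe sets tested, 171 (1.02%) had every injured sample above every sham sample and 224 (1.34%) every one below. At an unadjusted p under 0.05, 1285 were higher (7.68%) and 1388 lower (8.3%). The count of calls rested on single samples. Without sham 4 h replicate 2 it was 1, without sham 24 h replicate 2 it was 2, without injured 4 h replicate 1 or sham 24 h replicate 1 it was 4, and without sham 4 h replicate 1 it was 6. Without injured 24 h replicate 3 it was 46, without injured 4 h replicate 4 it was 97, and without injured 24 h replicate 4 it was 129. With a sham sample gone, the lone one at that time took its spread from the other groups.

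**Figure D1:**
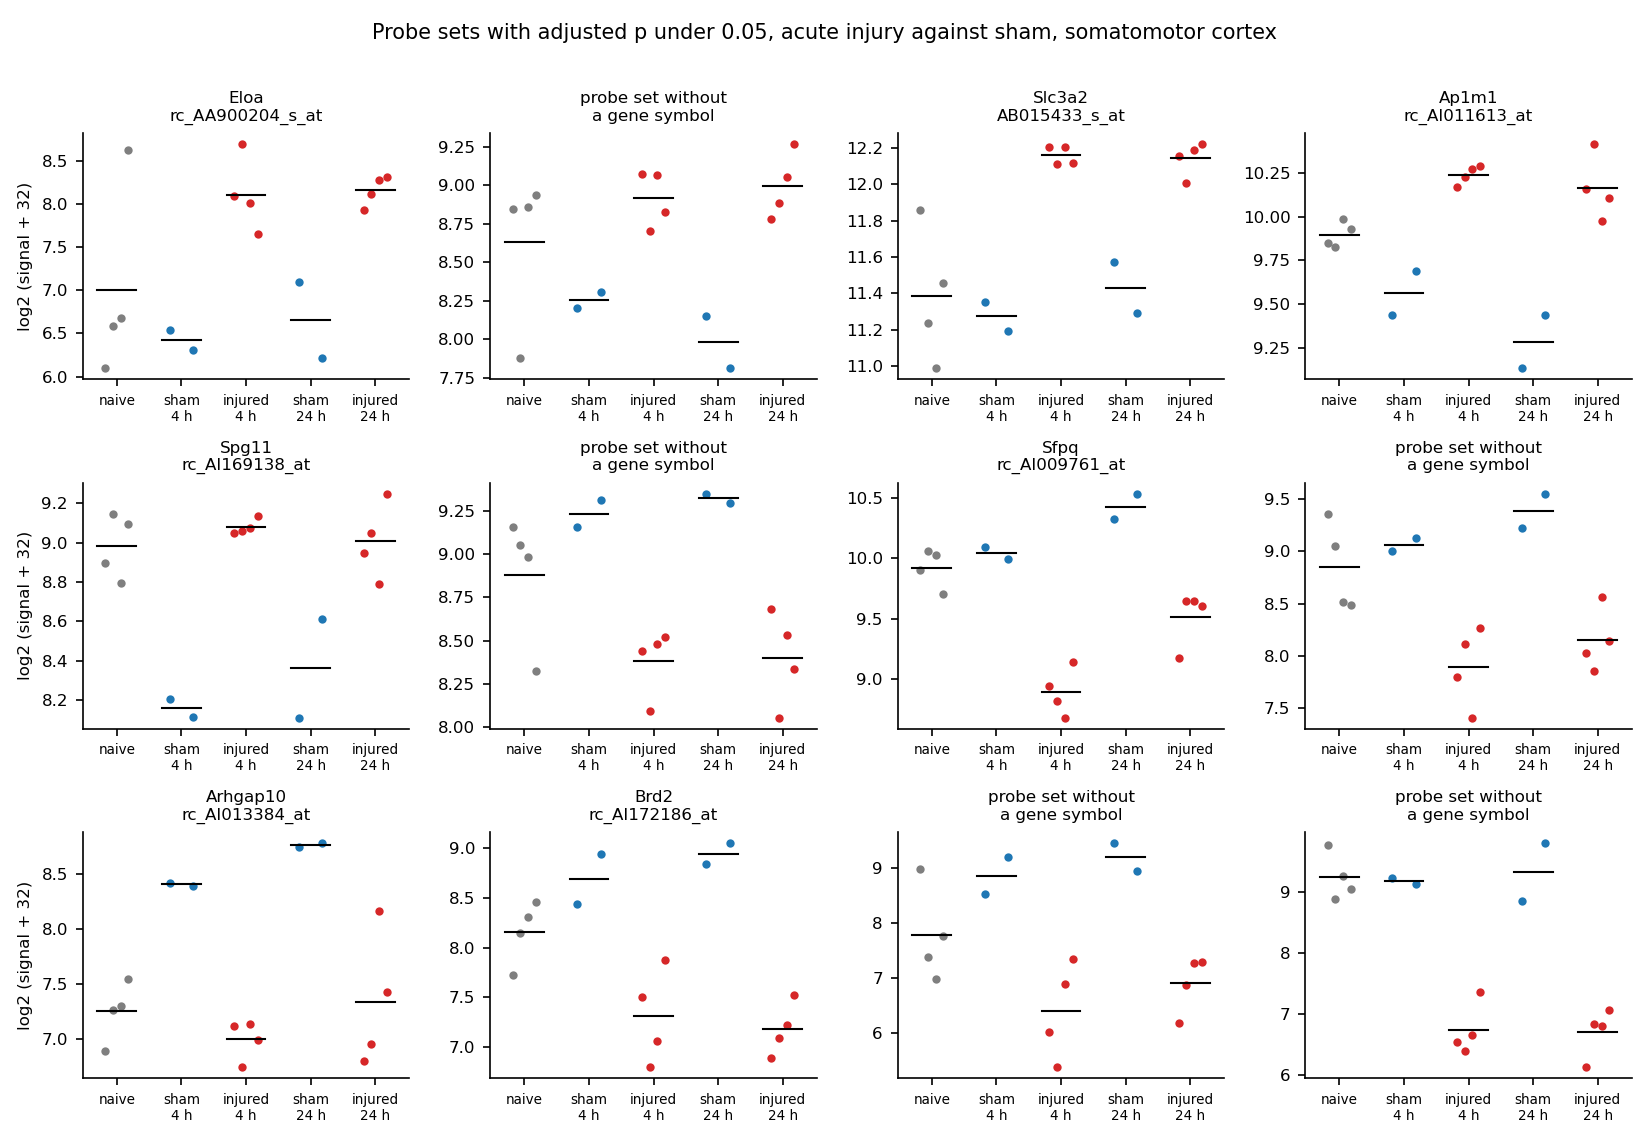
Signal of the 12 probe sets that passed for injury against sham over both times, as log2(signal + 32) on the vertical axis, with 1 panel a probe set and 1 point a sample; bars are group means, grey points are naive, blue sham and red injured samples. In each panel the 8 red points lie on 1 side of the 4 blue points; naive points lie with the sham points in some panels, as for Slc3a2, and with the injured points in others, as for Arhgap10.

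RNA quality moved with the groups, and its part in these results was not tested beyond the values given here. The ratio of the actin control signal at the 3′ end to that at the 5′ end rises as RNA is cut or copied incompletely. On type A it was 1.29 to 1.53 in the 8 injured samples, 1.69 to 1.84 in the 4 sham samples and 1.33 to 1.63 in the 4 naive samples. The injured and sham ranges did not overlap (exact permutation test within times over 225 arrangements, p = 0.0044, the smallest it can give, and 0.052 after adjustment). The adjustment ran over 12 measures: the actin and GAPDH control ratios, a low percentile and the median signal of each array type. On type B the actin ratio was 1.32 to 1.66 against 1.45 to 2.01 (exact permutation p = 0.022, adjusted 0.065), and on type C 1.16 to 1.63 against 1.44 to 1.57 (exact permutation p = 0.276, adjusted 0.301). The same ratio of the GAPDH control was lower after injury on type C, at 1.12 to 1.375 against 1.335 to 1.479 (exact permutation p = 0.013, adjusted 0.052). For GAPDH the adjusted exact permutation p was 0.106 on type B and 0.214 on type A. A limma fit that held the actin ratio as a covariate called 0 probe sets, and 1613 stayed under an unadjusted 0.05. Since the ratio separates the groups on type A, such a fit cannot tell the 2 apart there.

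**Figure D2:**
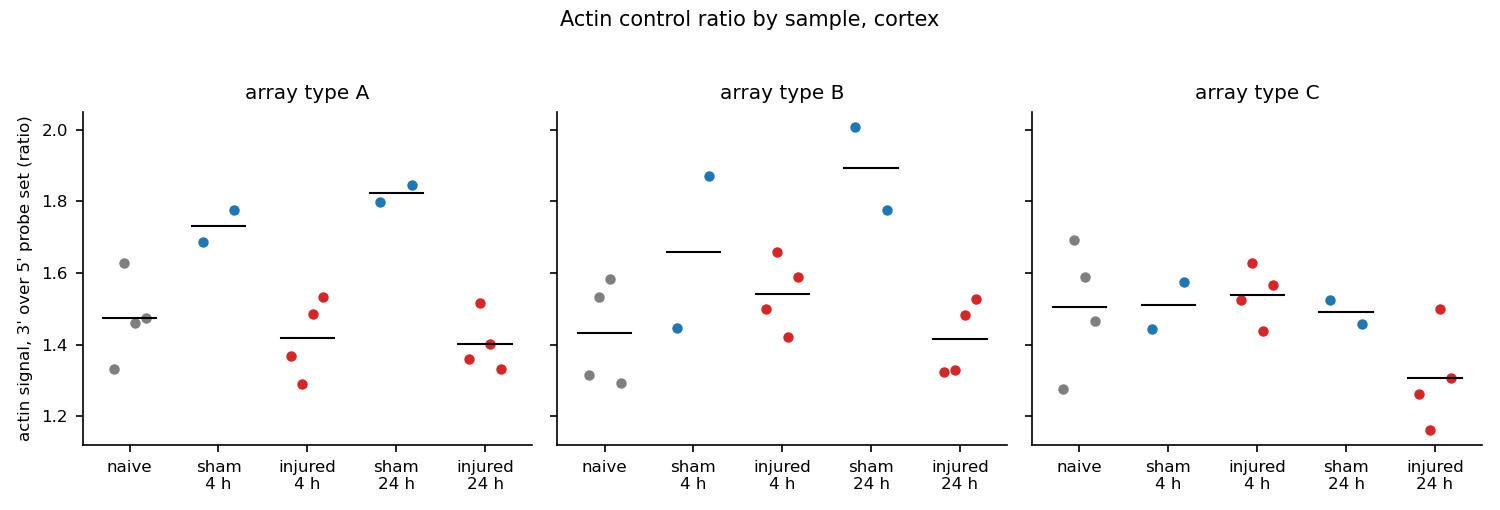
Ratio of the 3′ to the 5′ actin control signal (vertical axis, no unit) in each cortex sample, with 1 panel for each array type and bars at group means. On type A the 4 sham samples lie above all 8 injured and all 4 naive samples; on type C the groups overlap.

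Slc3a2 encodes the heavy chain that brings several amino acid exchangers, among them the leucine carrier Slc7a5, to the cell surface. Its probe set AB015433_s_at read 4682, 4399, 4693 and 4415 in injured cortex at 4 h and 4527, 4087, 4630.2 and 4736 at 24 h. Sham samples read 2586 and 2313 at 4 h and 3009 and 2476 at 24 h. The injured values formed a narrow band above every sham value at both times. Slc3a2 rose 1.74-fold (0.80 ± 0.11, n = 8 and 4, adjusted p = 0.015), by 0.89 at 4 h and 0.71 at 24 h. The naive samples, at 3682, 2387, 2003 and 2781, lay near sham, and injured cortex was above them by 0.76 (adjusted p = 0.009). The other Slc3a2 probe set was higher by 0.42 ± 0.13 (adjusted p = 0.152), again without overlap. The call was lost without injured 4 h replicate 1, sham 24 h replicate 2 or either sham 4 h sample, with adjusted p up to 0.086, and with the actin covariate (0.70, adjusted p = 0.431).

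Because the acute window had been singled out by Sfpq, the p-values of this gene are no independent support. Sfpq was measured by 5 tested probe sets. The brightest, rc_AI009761_at, read 459, 419, 377 and 531 in injured samples at 4 h and 545, 768, 769 and 744 at 24 h. Sham samples read 1064 and 989 at 4 h and 1251 and 1453 at 24 h, and naive samples 928, 1036, 1009 and 800.2. All 8 injured samples were below all sham and all naive samples. This probe set fell 2.05-fold against sham (-1.03 ± 0.13, n = 8 and 4, adjusted p = 0.012), by -1.15 at 4 h and -0.92 at 24 h, and by -0.72 against naive (adjusted p = 0.0081). The call was lost without sham 24 h replicate 2 or either sham 4 h sample, with adjusted p up to 0.076, and with the actin covariate the difference was -1.06 (adjusted p = 0.159).

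None of the other Sfpq probe sets passed. AF036335_at differed by -0.20 ± 0.13 and AF036335_g_at by -0.10 ± 0.24. rc_AA964033_at differed by 0.05 ± 0.18 and rc_AA956890_g_at by 0.33 ± 0.14 (adjusted p = 0.283). So 1 of 5 passed and 2 of 5 had a difference above 0; which exons or ends each one covers was not examined. Nono, the usual partner of Sfpq, differed by 0.04 ± 0.10 and Pspc1, the third protein of the family, by -0.03 ± 0.11. The injured and sham samples of both genes overlapped.

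**Figure D3:**
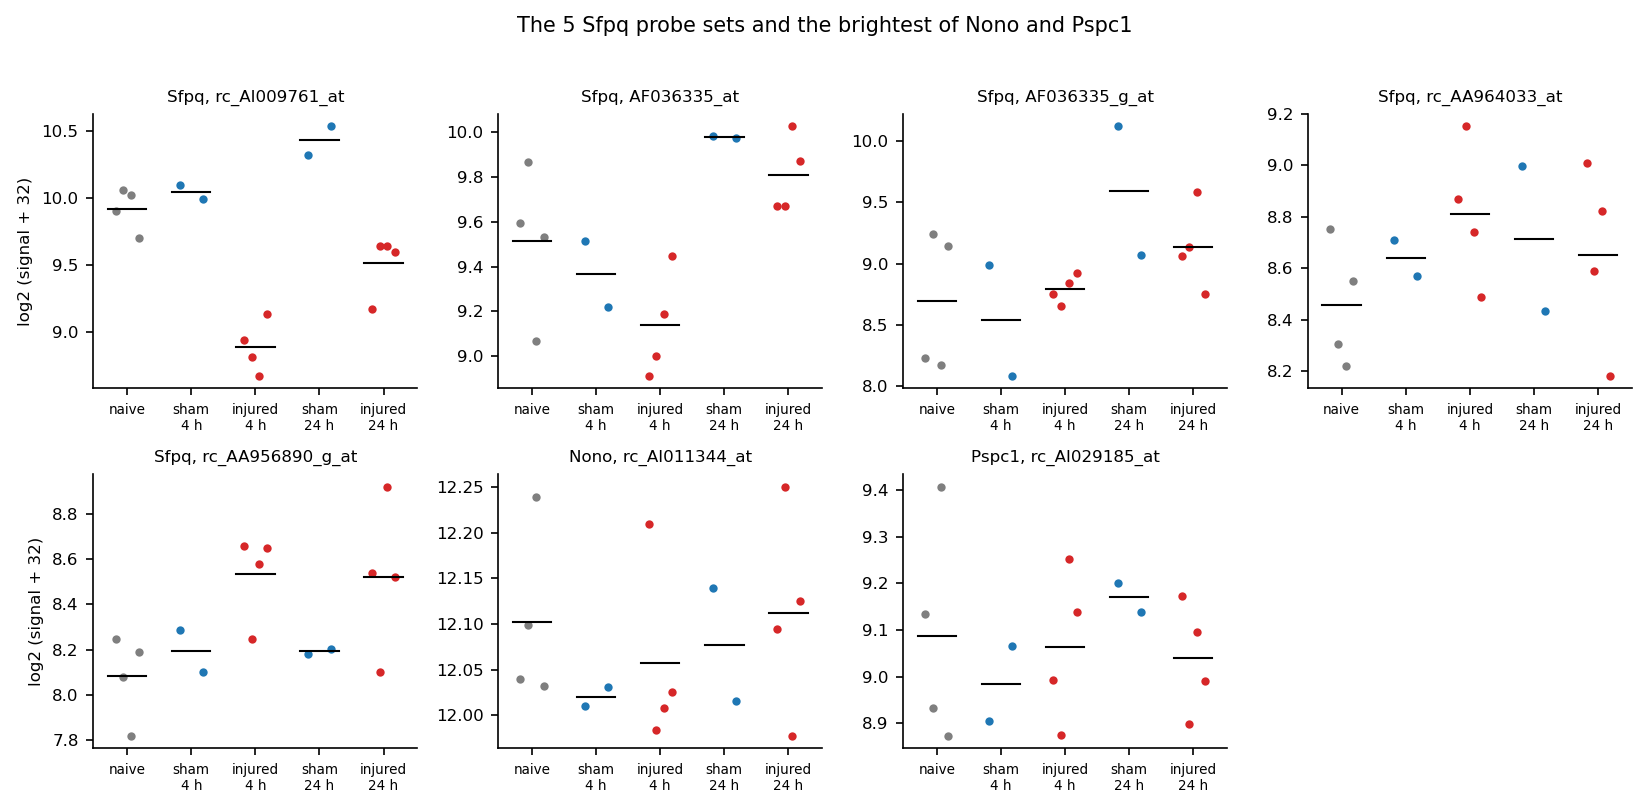
Signal, as log2(signal + 32), of the 5 Sfpq probe sets and of the brightest probe set of Nono and of Pspc1 in naive (grey), sham (blue) and injured (red) cortex, with bars at group means. The sham and injured points separate in the panel of rc_AI009761_at alone; in the other 6 panels they overlap.

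Over the 12 samples, with the mean of each time removed, the genes of type B whose signals ran most like that of the Sfpq probe set were Evi5 (r = 0.96), Bltp2 (0.95), Nfe2l1 (0.92), Msh6 (0.92) and Arhgef12 (0.91), out of 2783 ranked. These correlations are a description: the samples share the injury grouping and the arrays. Evi5, a regulator of Rab GTPases, was lower by 0.63 on the log2 scale in injured samples (-0.63 ± 0.11, adjusted p = 0.054), and Arhgef12, a guanine nucleotide exchange factor, by 0.81 (-0.81, adjusted p = 0.071).

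Of the other 10 calls, 5 carry a gene symbol, and each of these comes from a probe set that is not the brightest of its gene; they are named because they passed, after their values were seen. Eloa, the elongin subunit that stimulates RNA polymerase II elongation, read 240.5, 382.5, 226 and 169 at 4 h and 213, 245, 278 and 286 at 24 h after injury. Sham samples read 60.8, 47.1, 105 and 42.5. It rose 3.02-fold (1.59 ± 0.20, adjusted p = 0.012), while its other probe set differed by -0.05. Naive samples were spread from 36.6 to 363, and against them the difference was 1.14 (adjusted p = 0.074).

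Brd2, a bromodomain protein that reads acetylated histones, fell 2.97-fold (-1.57 ± 0.20, adjusted p = 0.012). Its probe set rc_AI172186_at read 150, 79.4, 102 and 202 at 4 h and 86.6, 105, 117 and 152 at 24 h after injury, against 316, 459, 426 and 496 in sham samples. All 8 injured values lay below the 40th percentile of their array, so the size of the fall rests on dim signals. Testing required 4 arrays above that percentile, and only the 4 sham samples gave them. The other 2 Brd2 probe sets differed by 0.14 and -0.30.

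Arhgap10, a GTPase-activating protein, was lower than sham by 1.42 (-1.42 ± 0.21, adjusted p = 0.027), with 75.2 to 255 in injured samples and 303 to 408 in sham samples. Naive cortex read 87.0 to 154, so injured samples differed from naive by -0.08 and sham samples from naive by 1.33 (adjusted p = 0.056). The other Arhgap10 probe sets, both brighter, differed from sham by -0.06 and -0.01. Spg11, the gene of a lysosomal protein mutated in a hereditary spastic paraplegia, rose by 0.78 ± 0.12 (adjusted p = 0.044) against sham. Its other tested probe set, the brighter one, did not pass. The called Spg11 probe set too stood at the naive level after injury (0.06), with sham below naive by 0.72 (-0.72). Ap1m1, a subunit of the clathrin adaptor complex AP-1, was above sham by 0.78 ± 0.12 (adjusted p = 0.027), and its other probe sets differed by 0.34 and -0.10. On the called Ap1m1 probe set injured samples differed from naive by 0.30 (adjusted p = 0.1) and sham samples by -0.47 (adjusted p = 0.151). The calls of these 5 genes were lost when single samples were left out: Eloa without sham 24 h replicate 2 or sham 4 h replicate 2, Brd2 without these or sham 24 h replicate 1, and Arhgap10 without injured 4 h replicates 1 or 2 or any sham sample. Ap1m1 lost its call without the same 6 samples or injured 24 h replicate 1, and Spg11 without any of 8 samples, the others being injured 24 h replicates 3 and 4, injured 4 h replicate 4 and sham 24 h replicate 2. Adjusted p reached 0.076 for Eloa and Brd2, 0.098 for Arhgap10, 0.104 for Ap1m1 and 0.152 for Spg11.

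Another 5 calls had no gene symbol. The probe set rc_AI639356_at showed the lowest adjusted p of the comparison. It read 61.6, 52.0, 69.3 and 133 at 4 h and 38.1, 82.3, 80.5 and 102 at 24 h after injury, against 570.1, 529.9, 433 and 860 in sham and 842, 443, 581 and 498 in naive samples. Injured samples were far below both control groups, which overlapped. It fell 5.78-fold (-2.53 ± 0.23, adjusted p = 9.0e-04), a size that rests on dim signals, since all 8 injured values lay below the 40th percentile of their array. It passed with each of the 12 samples left out in turn, where the choice of tested probe sets was kept from all 12, and differed from naive by -2.52 (adjusted p = 4.7e-04). With the actin covariate the difference was -1.74 (adjusted p = 0.320). Of the other unnamed calls, rc_AA894148_s_at fell by 2.38 (-2.38 ± 0.33, adjusted p = 0.020) and rc_AI072353_at rose by 0.84 (adjusted p = 0.044). Below the same percentile lay all 8 injured values of rc_AA894148_s_at, 7 of 8 for Arhgap10 and all 4 sham values of Eloa. Testing required at least 4 arrays above that percentile. So rc_AI639356_at, rc_AA894148_s_at and Brd2 were tested through their sham values alone, and Eloa through its injured values alone. That choice favours separated groups, so the lack of overlap in these probe sets is no independent support. With no filter their calls still held. The rc_AA894148_s_at call was lost without any 1 of the sham samples or injured 4 h replicate 1, and that of rc_AI072353_at in 8 of 12 leave-outs (all but injured 24 h replicates 3 and 4 and injured 4 h replicates 2 and 4).

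Injured and sham samples were also each set against the 4 naive samples; these comparisons share samples with the main one and are given side by side. Injured differed from naive in 1097 of 17263 probe sets (6.35%) and sham from naive in 14 (0.0811%). Of the 12 probe sets called against sham, 5 were called between injured and naive and 0 between sham and naive. They include Slc3a2, Sfpq, Brd2 and rc_AI639356_at. The groups set against naive are unequal, with 8 injured and 4 sham samples.

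With 1 probe set for each gene, the brightest, 8485 genes were tested, of which 2 passed (0.0236%), Slc3a2 and Sfpq. Other genes with the smallest p did not pass and are given with their differences. Among those above sham were Sec63, a translocation partner of the endoplasmic reticulum (0.63 ± 0.10, adjusted p = 0.054), Cmas, which activates sialic acid (1.80 ± 0.30, 0.054), Tmub2 (0.60, 0.065), Polr1h, an RNA polymerase I subunit (1.38, 0.065), Hunk (0.56, 0.071), Cmtm8 (0.49, 0.071), Ifitm10 (1.15, 0.071) and Tmem268 (1.49, 0.071). Among those below sham were Pik3r1, the regulatory subunit of PI3 kinase (-1.06 ± 0.18, 0.054), the cadherin Cdh3 (-1.66 ± 0.29, 0.054), the cytokine signalling inhibitor Socs1 (-1.05 ± 0.18, 0.054), Ascc2 (-0.71, 0.054), Entpd5 (-0.68, 0.054), Vps25 (-0.59, 0.055), Rai1 (-0.67, 0.061) and Setd5 (-0.60, 0.066). For Pik3r1 and Cdh3 sham samples were above naive, by 1.04 and 1.58. For Hunk sham samples were below naive (-0.61), and injured samples differed from naive by -0.05.

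Gene lists were read by how many members lay on either side, beside the same count over all 8485 genes. Of all genes, 4411 (52.0%) had a difference above 0 and 4074 (48.0%) below, with a median of 0.01; 653 (7.7%) were higher and 552 (6.51%) lower at an unadjusted p under 0.05. Fully separated were 93 (1.1%) upward and 96 (1.13%) downward. No member of any list passed the adjusted threshold apart from Sfpq, so the counts below describe these samples.

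**Figure D4:**
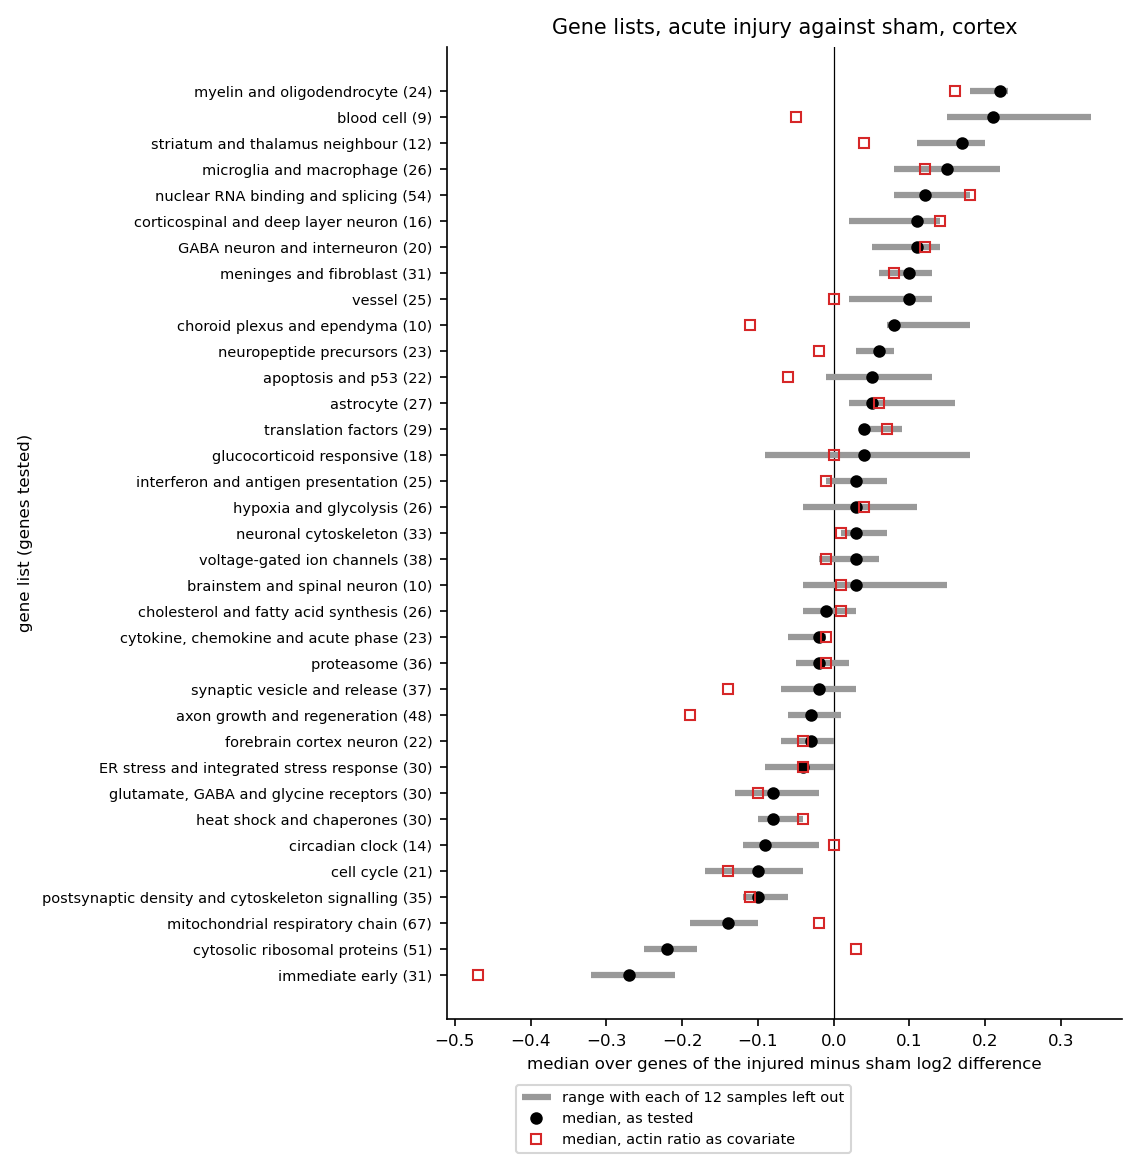
Median over the tested genes of each list (number of genes in brackets) of the injured minus sham log2 difference over both times; dots are the values as tested, grey bars the range with each of the 12 samples left out, and open squares the values with the actin ratio as covariate. Immediate early genes have the lowest median, -0.27, and myelin genes the highest, 0.22; with the covariate the ribosomal median moves from -0.22 to 0.03.

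Immediate early genes are switched on within minutes by neuronal activity and growth factors, and several encode transcription factors. Of 31 tested, 27 were below sham, with a median of -0.27, and 5 were lower and 0 higher at an unadjusted p under 0.05. At 4 h the median was -0.13 with 19 of 31 below (47.6% of all genes were below at that time), and at 24 h it was -0.44 with 25 below (49.0% of all genes). At 24 h, 9 of 31 were lower at an unadjusted p under 0.05, against 3.78% of all genes, and 0 higher against 5.14%. At 4 h there were 2 lower and 1 higher, against 4.17% and 5.49%.

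The medians of the single injured samples, each against the sham mean of its time, were -0.02, 0.02, -0.12 and -0.20 at 4 h and -0.57, -0.48, -0.33 and -0.17 at 24 h. So 4 of 4 samples lay below sham at 24 h and values near 0 were seen at 4 h. The lowest medians at 24 h, -0.57 and -0.48, belong to replicates 1 and 2, whose type A arrays are described as 4 h. Egr1, Egr2, Junb and Arc are on type A, and the undisputed replicates 3 and 4 were at -0.33 and -0.17. What part the label conflict had in the list median was not tested. The median was -0.25 under quantile normalization and -0.47 with the actin covariate. It was -0.09 where all probe sets of a gene were averaged. Against naive cortex it was -0.04 for injured and 0.24 for sham samples, with 0 members called in either, where limma called 294 genes (3.46%) higher and 223 (2.63%) lower between injured and naive and 10 (0.118%) higher and 0 (0.0%) lower between sham and naive.

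Egr2, a zinc finger factor of this class, read 178, 93.6, 99.6 and 109 at 4 h and 214, 423, 742 and 419.6 at 24 h after injury. Sham samples read 233 and 195 at 4 h and 1268 and 957 at 24 h, and naive samples 144 to 477. Signals were higher at 24 h than at 4 h in both groups, and at each time the injured samples were below sham. The difference was -1.04 ± 0.26 (adjusted p = 0.108). Junb, a partner of Fos in the AP-1 factor, read 828 to 1005 at 4 h against sham values of 1410 and 2045, and 1017 to 2896 at 24 h against 2021 and 3991 (-0.74 ± 0.25, adjusted p = 0.178). Arc, whose protein trims synaptic receptors, read 2200 to 2973 against 3001 and 4168 at 4 h, and 3039 to 7120 against 7620 and 10461 at 24 h (-0.63 ± 0.21). Fos itself differed by -0.16, Jun by -0.14, Nptx2 by 0.27 and Klf6 by 0.13.

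In the injured samples alone, 2 probe sets differed between 24 h and 4 h (0.012%), with 4.23% higher and 6.14% lower at 24 h at an unadjusted p under 0.05. Egr1, the activity marker also called Zif268, was 1 of them. Its probe set M18416_at read 1627, 1425, 1819 and 1470.0 at 4 h and 3560.3, 4013, 6191 and 4862 at 24 h after injury, against 2440.5 and 2065 at 4 h and 7819 and 7641 at 24 h in sham samples. It rose by 1.51 ± 0.18 between the times in injured samples (adjusted p = 0.016), and the other 3 Egr1 probe sets were higher by 1.23, 1.31 and 0.57. Sham samples also read higher at 24 h than at 4 h. The other was Eya2, a transcriptional coactivator with phosphatase activity, which read 534, 332, 403 and 483 at 4 h and 89.2, 119.5, 115 and 122 at 24 h and fell by 1.70 (-1.70 ± 0.18, adjusted p = 0.011). Its sham samples, at 175.5 to 285, lay between. The Egr1 call was lost without injured 24 h replicate 4 or injured 4 h replicate 1 (adjusted p up to 0.099) and that of Eya2 without the latter (0.065). The count was 0 without injured 4 h replicate 1, 1 without injured 24 h replicate 4, 5 without injured 4 h replicate 2, and 6 without injured 4 h replicate 4 or either sham 24 h sample. Without the 2 type A arrays whose labels conflict it was 31, both calls included. Where they were taken as 4 h it was 98, and the Egr1 call was lost while that of Eya2 held. Both were lost with the actin covariate (adjusted p = 0.094 for Egr1 and 0.176 for Eya2). The next genes did not pass: Egr2 (1.58, adjusted p = 0.165), Nr4a3 (0.98), the semaphorin receptor Nrp1 (0.88) and the matrix gene Fn1 (0.68) were higher at 24 h, and Lfng (-1.40, adjusted p = 0.06), Sertad4 (-0.85), Mrpl41 (-1.55) and Fam43a (-0.74) lower.

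**Figure D5:**
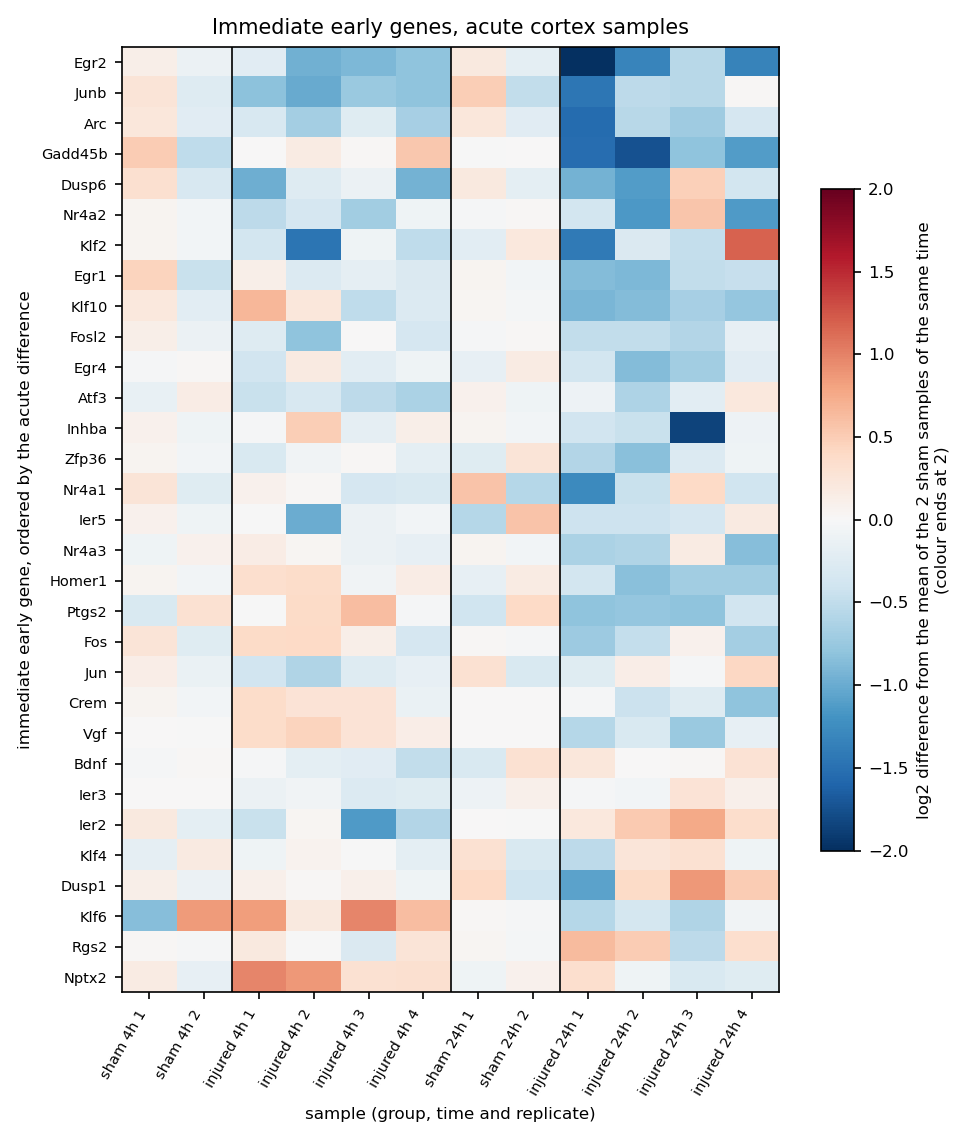
Difference of each sham and injured sample from the mean of the 2 sham samples of its time, in log2 units (colour, ending at 2 either way), for the 31 tested immediate early genes in rows ordered by their difference over both times. Blue fills most rows of the injured 24 h columns; in the injured 4 h columns both colours occur.

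Regulatory elements known from genes of this class are the CArG box, bound by serum response factor, and the cAMP response element TGACGTCA, and both were searched near the starts. RefSeq promoter windows (build GRCr8, 250 bases before to 50 after the start, either strand) were found for 23 of the 31 tested genes. A CArG box was present in 4 of the 23 (17.4%: Egr1, Egr2, Klf6 and Zfp36) and in 451 of 27457 promoters in all (1.64%). The element TGACGTCA was present in 3 of the 23 (13%: Dusp1, Ier2 and Vgf) and in 525 of all (1.91%). A match is a description of the letters and no measure of binding. The 250 bases before the start of Egr2, Zfp36 and Klf6 are printed, with the box in capitals, to show where it lies; Egr1 is not printed. The box begins 83 bases before the start in Egr2 (chr20:21054442-21054691, minus strand), 32 before in Zfp36 (chr1:92799109-92799358, minus strand) and 201 before in Klf6 (chr17:69458479-69458728, minus strand).
Egr2: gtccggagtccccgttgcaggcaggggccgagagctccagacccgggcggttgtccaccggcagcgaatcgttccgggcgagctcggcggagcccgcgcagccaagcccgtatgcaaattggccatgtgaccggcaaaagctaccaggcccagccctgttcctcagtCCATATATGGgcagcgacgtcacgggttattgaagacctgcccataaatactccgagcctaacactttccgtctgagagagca
Zfp36: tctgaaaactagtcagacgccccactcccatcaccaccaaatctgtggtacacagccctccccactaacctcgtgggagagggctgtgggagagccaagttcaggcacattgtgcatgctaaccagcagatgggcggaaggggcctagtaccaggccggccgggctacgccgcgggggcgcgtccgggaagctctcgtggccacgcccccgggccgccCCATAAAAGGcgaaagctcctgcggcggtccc
Klf6: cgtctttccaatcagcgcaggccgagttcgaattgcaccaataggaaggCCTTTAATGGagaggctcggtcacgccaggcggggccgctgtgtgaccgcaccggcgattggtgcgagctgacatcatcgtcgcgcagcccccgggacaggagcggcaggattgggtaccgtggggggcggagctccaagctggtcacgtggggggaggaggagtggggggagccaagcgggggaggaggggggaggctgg
Among the 4 genes with the box, Egr2 differed from sham by -1.04, Egr1 by -0.42, Zfp36, which encodes an RNA-destabilising protein, by -0.29, and the zinc finger factor Klf6 by 0.13. None of the 4 passed the adjusted threshold.

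Cytosolic ribosomal protein genes lay below sham in 42 of 51 tested, with a median of -0.22. Of the 51, 15 were lower and 0 higher at an unadjusted p under 0.05, and 6 had no overlap between the groups, all downward. Rps18 read 31597, 30131, 34846 and 37218 at 4 h and 31218, 43390, 43875 and 37330 at 24 h after injury, against 56942, 53909, 56165 and 53691 in sham samples. Its injured values were all below its sham values (-0.62 ± 0.12, adjusted p = 0.071). Rps19 differed by -0.50 ± 0.10 (adjusted p = 0.079), Rpl36 by -0.46 ± 0.10 and Rpl28 by -0.44 ± 0.11, all 3 likewise without overlap. With the actin covariate the median was 0.03 and 25 of 51 lay below 0. Against naive cortex 16 members were called lower (31.4%, against 2.63% of all genes) and 1 higher (1.96%, against 3.46%) in injured samples, with a median of -0.37, and the median of sham samples was -0.14 with 0 called.

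Subunits of the mitochondrial respiratory chain lay below sham in 52 of 67 tested, with a median of -0.14, 10 lower and 1 higher at an unadjusted p under 0.05. Ndufs8 of complex I differed by -0.36 ± 0.11 and Cox6a1 of complex IV by -0.37 ± 0.12, while Ndufs3 was higher by 0.28 ± 0.12. The other probe sets differed by -0.21 and 0.50 for Ndufs8 and by -0.16 and 0.01 for Cox6a1. With the actin covariate the median was -0.02 and 39 of 67 lay below. The same fit put the proteasome at a median of -0.01 and the translation factors at 0.07, near their values of -0.02 and 0.04 without it.

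Genes of myelin and oligodendrocytes lay above sham in 19 of 24, with a median of 0.22, 8 higher and 1 lower at an unadjusted p under 0.05. Mal, a proteolipid of compact myelin, read 4865, 5087, 4029 and 4486 at 4 h and 5145, 5382, 3916 and 3971 at 24 h after injury, against 2951, 3689, 2692 and 2820 in sham samples. Cldn11, which seals myelin with tight junctions, read 5666 to 9518 after injury against 3705 to 5453 in sham samples. Both were without overlap, at 0.60 ± 0.13 (adjusted p = 0.088) and 0.63 ± 0.15 (0.091). Ugt8, which makes galactosylceramide, differed by 0.52 ± 0.15 and the oligodendrocyte factor Sox10 by 0.42 ± 0.16. Mbp, which encodes myelin basic protein, went the other way (-0.32 ± 0.13). The summed signal of the 24 genes overlapped, at 92078 to 131672 after injury and 102771 to 114006 in sham samples. Against naive cortex the medians were -0.25 for injured and -0.36 for sham samples, so the list lay below naive in both groups.

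Genes of microglia and macrophages, the phagocytes of the tissue, were above sham in 17 of 26 with a median of 0.15; 3 were higher and 1 lower at an unadjusted p under 0.05. C1qb, a chain of the first complement component, read 1792, 1675, 1837 and 1690.4 at 4 h and 2224, 2169, 1779 and 2555 at 24 h after injury, against 1273, 1255, 1296 and 1097 in sham samples. All injured values lay above all sham values (0.65 ± 0.13, adjusted p = 0.071), and naive samples, at 1297 to 1757, overlapped the injured ones. Gpnmb, a glycoprotein of lysosome-rich macrophages, differed by 0.23 at 4 h and 1.31 at 24 h, and Cd68, a lysosomal protein of phagocytes, by 0.39 ± 0.11. Apoe, the lipid carrier made chiefly by astrocytes and microglia, was at -0.37 ± 0.13. At 24 h the list median was 0.10, with 6 of the 26 higher and 0 lower. At 4 h the median was -0.05 with 15 of 26 below sham, and 3 were higher and 1 lower. Against naive cortex the median was -0.04 for injured and -0.18 for sham samples. Between injured and naive 1 member was called higher (3.85%, against 3.46% of all genes) and 4 lower (15.4%, against 2.63%). Between sham and naive 0 were called.

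Of 27 astrocyte genes 5 were higher and 2 lower; the receptor gene Ntrk2 (0.55 ± 0.12, without overlap) and the bicarbonate transporter Slc4a4 (0.56 ± 0.24) were among the former, and Mt3 (-0.44 ± 0.15) among the latter. Of 25 vessel genes 4 were higher and 0 lower, led by smooth muscle Myh11 (0.88 ± 0.25) and Acta2 (0.78 ± 0.28), which differed by 1.38 at 4 h and 0.19 at 24 h. Meninges and fibroblast genes were higher in 5 of 31 with 0 lower, among them Mgp (0.45 ± 0.18) and Col5a1 (0.33 ± 0.14). Choroid plexus genes gave 0 of 10 in either direction and blood cell genes 1 higher and 1 lower of 9, Hbb-bs (0.43 ± 0.20) and S100a8 (-0.85 ± 0.38). The summed signals of all these marker lists overlapped between injured and sham samples, no marker was at 0, and what part dissection had in these differences was not tested.

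Lists of neuron genes are given by members at an unadjusted p under 0.05 in limma, where 7.7% of all genes were higher and 6.51% lower. Forebrain neuron genes gave 2 higher and 2 lower of 22, with Ptk2b at 0.38 ± 0.13 and Nptx1 at 0.51 ± 0.20. The other probe sets differed by -0.00 for Ptk2b and by 0.12 and 0.33 for Nptx1. Corticospinal and deep layer genes gave 3 higher and 0 lower of 16: the light neurofilament gene Nefl, at 6324 to 7637 after injury against 5730 to 6340 in sham samples (0.24 ± 0.10), Ldb2 (0.34 ± 0.15) and Tle4 (0.52 ± 0.24). The other Nefl probe set differed by -0.07. GABA neuron genes gave 2 higher of 20, Tac1 (0.40 ± 0.15) and Calb1 (0.44 ± 0.18). Genes of axon growth and regeneration were split with 4 higher and 4 lower of 48. Omg was among the former (0.39 ± 0.13), and Stat3, a factor activated by cytokines in injured neurons, among the latter (-0.52 ± 0.13, with its other 4 probe sets at -0.74, 0.29, -0.19 and 0.09), with Plxna3 (-0.47 ± 0.15) and the CNTF receptor gene Cntfr (-0.50 ± 0.17).

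Receptors for glutamate, GABA and glycine were lower in 5 of 30 and higher in 1. The metabotropic glutamate receptor Grm3 read 1665 to 3326 at 4 h after injury against 4406 and 4622 in sham samples, and 2785 to 4308 against 4269 and 4451 at 24 h (-0.66 ± 0.20). The AMPA receptor genes Gria3 (-0.91 ± 0.28, with its other probe sets at -1.02 and 0.40) and Gria4 (-0.73 ± 0.24), Gabra3 (-0.46 ± 0.16) and Grm5 (-0.68 ± 0.28) were also lower, and Gabrb1 higher (1.19 ± 0.50). Synaptic vesicle genes gave 1 higher and 3 lower of 37, with Syt5 at 0.47 ± 0.15 and Cplx2 at -0.91 ± 0.27. The intermediate filament gene Ina was at -0.98 ± 0.33, with injured samples spread from 2229 to 7893 against 7384 to 7956 in sham samples. The other Ina probe set, almost as bright, differed by -0.05 ± 0.21. Voltage-gated channels gave 3 higher and 1 lower of 38. Among them were the sodium channel genes Scn1a (0.73 ± 0.25) and Scn3b (0.32 ± 0.10, with its other probe set at -0.28).

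The nuclear RNA binding and splicing list, to which Sfpq belongs, lay above sham in 40 of 54, with a median of 0.12. Where all probe sets of a gene were averaged, 33 of 54 lay above sham and the median was 0.03. At an unadjusted p under 0.05, 4 were higher and 3 lower, Sfpq included. Rbm3, the cold-inducible RNA-binding protein, read 1818 to 3083 at 4 h against 1274 and 2217, and 1994 to 3467 at 24 h against 1199.7 and 1391 (0.72 ± 0.21, adjusted p = 0.144). Tardbp, which encodes TDP-43, differed by 0.36 ± 0.11, Luc7l3 by 0.57 ± 0.19 and Srsf10 by 0.45 ± 0.17. Rbfox2, a regulator of neuronal splicing, was at -0.53 ± 0.18 and Hnrnpu at -0.38 ± 0.17.

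Genes that respond to glucocorticoids were compared with naive cortex as well as with sham. Between injured and naive cortex 10 of 18 were called higher (55.6%, against 3.46% of all genes) and 0 lower (2.63% of all), with a median of 0.80. Between sham and naive 3 of 18 were called higher (16.7%, against 0.118% of all genes) and 0 lower, Tsc22d3 (1.09 ± 0.15, adjusted p = 0.0083), the glucocorticoid receptor chaperone gene Fkbp5 (1.95 ± 0.33, 0.049) and Gpd1 (0.93 ± 0.16, 0.049), with a median of 0.71. Between injured and sham the median was 0.04, with 3 higher and 1 lower at an unadjusted p under 0.05. Sgk1, a kinase induced by the hormone, read 1457 to 2155 at 4 h against sham values of 1444 and 1575, 1412 to 1839.5 at 24 h against 783 and 971, and 497 to 846 in naive samples. It was above naive by 1.39 ± 0.16 after injury (adjusted p = 0.001) and by 0.82 ± 0.18 after sham surgery (adjusted p = 0.095).

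Other pathways are given by members at an unadjusted p under 0.05 in limma, where 7.7% of all genes were higher and 6.51% lower. Cholesterol and fatty acid synthesis genes lay above sham in 13 of 26 and below in 13, with a median of -0.01. In this list 5 were higher and 0 lower, with Mvk at 0.54 ± 0.14, Acly at 0.43 ± 0.15 and Fasn at 0.30 ± 0.10. Of these, Mvk and Fasn lay slightly below naive after injury, by -0.08 and -0.04. Hypoxia and glycolysis had 3 higher and 1 lower of 26, with the vessel growth factor gene Vegfa at 0.60 ± 0.16. Cytokine and acute phase genes had 2 higher and 3 lower of 23, the latter being Socs1, Stat3 and Nfkb1 (-0.36 ± 0.12). Interferon and antigen presentation had 3 higher and 3 lower of 25, with Irf3 at 0.93 ± 0.20 and its other probe set at -0.31. Heat shock had 0 higher and 1 lower of 30 (Dnaja1, -0.38 ± 0.12, with its other probe set at 0.23). The endoplasmic reticulum stress list had 3 higher and 2 lower of 30, and apoptosis 1 and 0 of 22.

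Taken at each time alone, limma called 0 probe sets at 4 h (0.0%), with 887 higher (5.3%) and 951 lower (5.68%) at an unadjusted p under 0.05 and a smallest adjusted p of 0.053. With 1 sample left out, 12 passed without sham 4 h replicate 2, 8 without sham 4 h replicate 1, 6 without injured 4 h replicate 4 and 1 without injured 4 h replicate 2 or injured 24 h replicate 3. The genes with the smallest p at 4 h were, above sham, Slc3a2 (0.89 ± 0.15, adjusted p = 0.128), Mlh3 (1.41, with its other probe set at -0.31), Bmp4 (1.80), Impact (1.16) and Pprc1 (2.09). Below sham they were Sfpq (-1.15 ± 0.18, adjusted p = 0.128), Tmlhe (-0.90), Pik3r1 (-1.21), Atp2b4 (-1.01) and Bbs9 (-0.88). Bmp4, a growth factor of the TGF-beta family, read 135 to 177 after injury against 19.5 and 26.1 in sham samples at 4 h. Naive samples read 148 to 192, so it was the sham samples at 4 h that stood apart.

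At 24 h 5 probe sets passed (0.0299%), 3 higher and 2 lower; 5.24% were higher and 4.63% lower at an unadjusted p under 0.05. Snap91, the clathrin assembly protein AP180 of nerve terminals, read 247, 348, 454 and 372 after injury against 44.9 and 49.5 on its probe set X68878_s_at and rose by 2.26 ± 0.25 (adjusted p = 0.011). On this probe set sham samples at 4 h read 296 and 210, and naive samples 421, 62.0, 31.6 and 93.4. The brighter Snap91 probe set differed by 0.38. Begain, a protein of the postsynaptic density, was above sham by 1.82 (adjusted p = 0.048) on a probe set other than its brightest, which differed by -0.12. The called probe set read 525 to 1048 after injury against 163 and 178. Sham samples at 4 h read 580 and 708 and naive samples 612, 197, 662 and 776, so the sham samples at 24 h lay below both. Lfng, a glycosyltransferase that modifies Notch, read 48.3, 68.6, 46.0 and 60.9 after injury against 242 and 274 and fell by 1.73 (-1.73 ± 0.24, adjusted p = 0.048). Its naive samples, at 28.7 to 121.7, lay with the injured ones, and sham samples differed from naive by 1.47 (adjusted p = 0.049). The unnamed rc_AA964555_at rose by 2.36 ± 0.18 (adjusted p = 4.5e-04), with 454 to 601 against 79.1 and 73.9, and passed with each of the 12 samples left out. Sham samples at 4 h read 299 and 355 and naive samples 231 to 452, so the sham samples at 24 h lay below both, and sham differed from naive by -0.97 (adjusted p = 0.061). The call of Snap91 was lost without injured 24 h replicate 2 (adjusted p = 0.051), that of Begain in 10 of 12 leave-outs (all but injured 24 h replicates 3 and 4) and that of Lfng in 11 (all but injured 4 h replicate 4). Of the rest, Wipf3 (1.28), the kinase gene Ikbkb (1.33), Fam135a (1.13), Tmub2 (0.80) and Gpnmb (1.31 ± 0.24) were above sham, and Rmc1 (-1.37), Socs1 (-1.23) and Syt12 (-0.98) below, with adjusted p from 0.09. The other Wipf3 probe sets differed by 0.47 and -0.46 at 24 h. With 1 sample left out, the count at 24 h was 52 without sham 24 h replicate 1, 11 without sham 24 h replicate 2, 9 without injured 24 h replicate 3, 1 without injured 24 h replicate 2, 3 without injured 4 h replicate 2, and 2 without injured 24 h replicate 1, injured 4 h replicates 1 or 3, or either sham 4 h sample.

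The injury difference itself changed between 4 h and 24 h in 1 probe set (0.00598%), with 2.41% above and 2.44% below 0 at an unadjusted p under 0.05. It belongs to Ubap2l, a protein of stress granules, and read 46.7, 88.1, 46.3 and 38.2 at 4 h and 203, 236, 144 and 260.2 at 24 h after injury. Sham samples ran the other way, with 332 and 273 at 4 h and 58.5 and 67.1 at 24 h. Naive samples read 56.6, 55.1, 187 and 29.1, all below the sham samples at 4 h. Below the 40th percentile of their array lay 5 of the 8 injured and 2 of the 4 sham values, so the size rests in part on dim signals. The difference from sham was -1.97 at 4 h and 1.33 at 24 h, a change of 3.30 ± 0.35 (adjusted p = 0.013). The other 2 Ubap2l probe sets gave 0.90 and -0.31. It was lost without injured 4 h replicate 1 or 3, sham 24 h replicate 2 or sham 4 h replicate 1.

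The acute difference was next tested against that at 7 d to 3 months, where other samples serve as sham. It differed in 65 of 18679 probe sets (0.348%), 17 upward and 48 downward, and in 32 when 3 later samples that an earlier analysis of these data had doubted were left out (sham 14 d replicate 2, injured 7 d replicate 2 and sham 3 months replicate 1), 26 of them shared. For Slc3a2 the later difference was -0.12 and the acute one exceeded it by 0.92 ± 0.17 (adjusted p = 0.020, and 0.042 without those 3). For Sfpq the later difference was -0.30 and the acute one was lower by 0.74 (-0.74 ± 0.15, adjusted p = 0.027, and 0.042). As the window had been singled out by Sfpq, these p-values are no independent support. The unnamed rc_AI639356_at differed most, by -3.50 (adjusted p = 2.0e-06), with a later difference of 0.97.

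Cmas (1.86 ± 0.35, adjusted p = 0.020), Pprc1 (1.66) and Klc2 (0.65), a kinesin light chain, were also higher in the acute window than later, and Rps18 (-0.82 ± 0.16, adjusted p = 0.020) lower; these calls held without the 3 samples. Atp6ap1 (0.70), Zmiz1 (-1.16), Syt12 (-0.91), Camk2n1 (-1.58), Eloa (2.27), Brd2 (-1.72) and Spg11 (0.87) passed with them and not without them, with adjusted p from 0.055 to 0.095. Within the later samples alone, 24 probe sets passed between injured and sham (0.128%).

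Against the raphe of the same times limma called 0 of 18144 probe sets (0.0%), while 997 had an unadjusted p under 0.05. It called 1 when raphe injured 4 h replicate 1, also doubted there for its actin ratio, was left out. In the raphe itself 1 passed between injured and sham (0.00551%). Slc3a2 was higher there by 0.29 and Sfpq lower by 0.36 (-0.36), and the regions differed by 0.51 (adjusted p = 0.832) and -0.67 (0.766), so a difference between cortex and raphe was not detectable for either. The smallest adjusted p belonged to Brd2 (-1.85 ± 0.30, 0.077). Among genes with 1 probe set each, Tmem109 (1.03), Ifitm10 (1.60), Bex4 (1.24), Cd68 (0.91) and Exd2 (0.79) had the smallest p upward and Nell2 (-1.78), Ube2g2 (-2.41), Ppp2r5c (-0.88), Hoxc4 (-1.51) and Pik3r1 (-1.12) downward, all with adjusted p of 0.461 or more. Whether cortex and raphe samples came from the same rats is not stated in the labels.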

How the data were processed

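The authors deposited 1 intensity per probe set and array, from total RNA on 3 rat array types; the sources used here do not give the software behind these intensities, and their scaling was kept. Members, gene lists and tests were chosen with earlier results of these data known. Each array type was fitted separately with limma 3.58.1 (R 4.3.3) on log2(signal + 32), with injury and time as terms over the 12 arrays of the type, or with 4 group means for single times. Probe sets above the 40th percentile of their array on at least 4 arrays were tested, and Benjamini-Hochberg adjustment ran over the 3 types together. Of 26202 probe sets, 18178 had 1 gene symbol in the platform annotation, 391 several and 7633 none; 59 control probe sets per type were left out. A gene is represented by its brightest tested probe set. Named are, by rule, 10 genes in each direction over both times (those called, filled up by smallest p), 5 in each direction for the other comparisons, up to 2 members of a list by smallest p, Sfpq, Nono and Pspc1; other members named with their values were chosen after these were seen. Same-numbered replicates correlated at -0.128 to 0.127 in their deviations from group means, so the numbers were not taken as pairs. The fits were tested on simulated data. The number of arrays limits the precision. Alternatives tried are given in the closing section.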

Additional observations from a re-analysis of the deposited data

Results flagged for a closer look

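In 129 groups of 4 samples looked at, 5 held a sample apart from the other 3, by a gap that took more of the group's range (shares in brackets) than Dixon's critical value; chance gives about 1 in 20 groups. They were Sfpq in injured cortex at 24 h, where replicate 1 read 545 and the others 744 to 769 (0.903), the unnamed rc_AI072353_at in naive cortex (0.914), Tmem268 (0.947) and Polr1h (0.832) in injured cortex at 4 h, and Cdh3 in naive cortex (0.936).

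Over all probe sets tested for a change between the acute window and later times, 65 of 18679 passed (0.348%). The acute injury difference differed from that at 7 d to 3 months, tested in limma with adjusted p under 0.05, for 17 of the probe sets named. It was higher in the acute window, on the log2 scale, for Eloa by 2.27, Cmas by 1.86, Pprc1 by 1.66, the unnamed rc_AA964555_at by 1.43, Slc3a2 by 0.92, Spg11 by 0.87, Atp6ap1 by 0.70 and Klc2 by 0.65. It was lower for the unnamed rc_AI639356_at (-3.50), Cdh3 (-2.21), Brd2 (-1.72), Camk2n1 (-1.58), Zmiz1 (-1.16), Syt12 (-0.91), Rps18 (-0.82), Rai1 (-0.80) and Sfpq (-0.74). Several of the 17 had been named for their small p in this same comparison, and the window had been singled out by Sfpq, so their number is no independent support. Without the doubted later samples the calls of Atp6ap1, Zmiz1, Syt12, Camk2n1, Eloa, Brd2 and Spg11 were lost. Between the acute times, the injury difference of the Ubap2l probe set was 3.30 higher at 24 h than at 4 h.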

How the results depend on the processing

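With 2 sham samples at each time, counts of calls moved with most choices. The acute count of 12 became 74 with a larger constant added before the log, 0 with the actin ratio as covariate, 34 with adjustment within each array type, 58 with the spread of all cortex groups, 543 with array quality weights, 44 with the filter at the 60th percentile and 24 with none, 92 with an intensity trend, 21 after quantile normalization and 1079 with naive cortex as the control; it ran from 1 to 129 with 1 sample left out. The 4 h count of 0 became 2 with adjustment within types, 3 with the spread of all cortex groups, 28 with weights, 2 with the stricter filter, 9 with none, 1 with the trend and 5 with the conflicting arrays taken as 4 h, and ran from 0 to 12. The 24 h count of 5 became 3 with 1 added, 0 with the covariate, 8 with all cortex groups, 16 with no filter, 3 with the conflicting arrays as 4 h and 2 without them, and ran from 1 to 52. The change of the injury difference between times, 1 call, became 2 with 1 added, 0 with the covariate, 3 within types, 0 with all cortex groups, 2 with the stricter filter and 0 with the trend, and ran from 0 to 8. Injured 24 h minus 4 h, 2 calls, became 4 with 1 added, 0 with the covariate, 4 within types, 5 with all cortex groups, 1 with the stricter filter, 6 with the trend, 98 with the conflicting arrays as 4 h and 31 without them, and ran from 0 to 6. With the replicate number as a block, which does not mark pairs here, the counts were 203, 8, 4, 0 and 0 in this order. Against later cortex 32 passed without the doubted samples, and against raphe 1. The sign turned with naive control for Hunk (-0.05), Nono (-0.02), Creld2 (0.04), Gata2 (-0.11), Dlg1 (-0.05), Mvk (-0.08), Fasn (-0.04), Bbc3 (-0.49) and Ccne1 (0.04). It turned with the covariate for Pspc1 (0.02), Drd1 (-0.15), Gata2 (-0.16), Ppp1r9a (0.74) and Ccnd2 (0.05), after quantile normalization for Pspc1 (0.04) and Tubb2a (0.08), and for Pspc1 without injured 24 h replicate 2 (0.00) or sham 24 h replicate 1 (0.01). The cause was not tested. Dim signals, such as those of Brd2 after injury, limit what a fold can show.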
